A study of Rattus norvegicus with 12 samples.

Results

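The miR-130 and miR-301 family comprised 4 of the 677 rat miRNAs on the array, namely rno-miR-130a, rno-miR-130b, rno-miR-301a and rno-miR-301b. In soleus muscle, rno-miR-130a and rno-miR-301a were detected on all 12 arrays and rno-miR-130b and rno-miR-301b on 0 of 12. The 4 were picked by name, without their star strands, and the family was selected on its measured signals by dam diet. The diet values of the members are therefore given as a description, and no conclusion is drawn from testing them. The samples were soleus muscles of 12 male Sprague-Dawley rats aged 1 year, each on its own array. The 6 control rats were born to dams on standard chow. The dams of the 6 high fat rats ate feed high in saturated fat and sucrose, starting before mating and continuing until lactation ended. All 12 offspring were weaned onto standard chow, so the high fat rats had no high fat feed of their own after weaning. The comparison asked whether the dam's diet left a difference in the muscle miRNAs of the adult offspring. Nothing in the labels says whether rats of a group had different dams, so the errors here measure only the spread between these rats. The group sizes in the study's text differ from those of the labels without naming the rats, and all labelled rats were used here. The rats' labels begin with A, C or H, letters that no source used here explains and that were split unevenly, with 3 control and 1 high fat rat under A and 1 control and 3 high fat rats under H.

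A miRNA guides silencing proteins to messenger RNAs that pair with its seed, the bases from position 2 to position 8, and miRNAs with the same seed form a family with shared targets. The miR-130 and miR-301 family is best known for repressing Pparg, the nuclear receptor that drives fat cell formation, and miR-130a is also known from endothelial cells. Mature members come from the 3′ arm of their hairpins, and the star strand is the opposite arm, which is usually degraded.

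The mature sequences are shown because the family is defined by them. RefSeq (GRCr8) entries were found for 3 of the 4 members, and the array rows without an arm suffix were taken as these 3′ arms. Capitals mark the seed.
rno-miR-130a-3p: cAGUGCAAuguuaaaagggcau
rno-miR-130b-3p: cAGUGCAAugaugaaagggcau
rno-miR-301b-3p: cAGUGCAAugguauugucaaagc

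All 3 sequences held the same first 10 bases and the same seed, which no other of the 724 mature entries in that table carried. From base 11 on they diverged. rno-miR-130b differed from rno-miR-130a at 2 of 22 positions, counted from the 5′ end, as U11A and A13G. rno-miR-301b differed from rno-miR-130a at 9 of the first 22 positions. The detected rno-miR-130a and the undetected rno-miR-130b are thus the most alike of these 3 sequences, with 20 of 22 positions identical.

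The genes lie at 3 places in GRCr8. Mir130a is on the minus strand at chr3:90229228-90229315 and overlaps Mir3590, a miRNA gene on the plus strand. Mir301a is at chr10:72422599-72422698 on the plus strand, inside the spans of the protein-coding genes Ska2 and Prr11. Mir301b, at chr11:97384033-97384110, and Mir130b, at chr11:97384380-97384461, lie 269 bases apart on the plus strand inside the span of 1 annotated protein-coding gene. Both genes of the chromosome 11 pair gave no detected signal and the 2 genes at the other places did. Over the whole array 432 of the 677 miRNAs (63.8%) were detected on none, and the part of gene place in this split was not tested.

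A pair of further miRNAs on the array, rno-miR-148b-3p and rno-miR-152, is shown because they carry the hexamer AGUGCA 1 base further along, so that it starts at base 3 and not at base 2. They belong to another family, and their seed, in capitals, starts with an extra C.
rno-miR-148b-3p: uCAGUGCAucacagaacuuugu
rno-miR-152-3p: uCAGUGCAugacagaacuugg

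Of the 677 miRNAs, 162 gave detected signal on every array, 193 on 6 arrays or more and 432 on none, and each array detected between 177 and 220. Both slides, told apart by the array barcode, carried 6 arrays, 3 of each diet. Summed detected signal ran from 331758 to 516055 on slide 1 and from 528297 to 567426 on slide 2. Signals were therefore scaled so that arrays shared their 75th percentile of the 162 miRNAs, and scaled signals are given in signal units. The 4 muscle fibre miRNAs (miR-1, miR-133a, miR-133b and miR-206) were detected in every rat, as were the 6 blood cell miRNAs, whose summed signal ran from 2304 to 4518 in control and from 1939 to 4515 in high fat rats. Of the 6 liver and epithelium miRNAs, rno-miR-200c was detected on no array, rno-miR-200a and rno-miR-200b on 1 each, rno-miR-194 on 8, rno-miR-122 on 10 and rno-miR-192 on all 12, and the summed list was at most 507 in control and 363 in high fat rats. High fat rat H3 stood apart from the others. Its summed slow fibre miRNAs (miR-499 and miR-208b-3p) were 366, against a median of 6121 in its group and a lowest value of 4588 in the control rats, and its summed vessel miRNAs (miR-126, miR-126*, miR-143 and miR-145) were 4980, against at least 10331 in the control rats. It also held the lowest rno-miR-206, 9354 against at least 34466 in the control rats, and the highest rno-miR-1, 136123. Diet values of the members are therefore also given without this rat, and the part of the marker miRNAs in them was not tested.

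rno-miR-130a gave clear signal in every rat. Its listed signals, before any scaling, were between 580 and 1535 in control rats (median 886) and between 634 and 1470 in high fat rats (median 839). Scaled, they ran from 710 to 1258 in control rats (median 922) and from 596 to 1109 in high fat rats (median 713). Control rats C73 and A89 were the highest, at 1258 and 1249, and high fat rat A37 was the lowest, at 596. The high fat rats fell into 2 levels, with H1 and C25 at 1109 and 1104 and the other 4 between 596 and 716, a range that also took in control rat A75 at 710. The ranges of the diets overlapped. In whole muscle, fewer cells that make a miRNA and less of it per cell cannot be told apart.

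The mean scaled signal of rno-miR-130a was 989 ± 220 (SD, n = 6) in control rats and 815 ± 230 (SD, n = 6) in high fat rats. The log2 difference, high fat minus control, was -0.29 with a standard error of 0.20 and a 95% interval from -0.74 to 0.15, a ratio of 0.816 (0.600 to 1.11), while without scaling it was 0.016. On slide 1 the log2 difference was -0.35 and on slide 2 it was -0.24, and without rat H3 it was -0.16, with the arrays rescaled. The scanner software's own error per array was between 7.12% and 7.21% of the signal, which leaves out extraction, labelling and hybridisation, and the coefficient of variation between rats was 22.2% in control and 28.2% in high fat rats.

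rno-miR-301a was also detected in every rat. Its listed signals were between 98.3 and 216 in control rats (median 136) and between 102 and 189 in high fat rats (median 153). Scaled, they ran from 137 to 186 in control rats (median 147) and from 106 to 152 in high fat rats (median 134). The 2 lowest rats, C51 and H3, both at 106, were high fat rats of slide 1, and A37 at 125 was the only other rat below the control range. H1, H20 and C25, at 152, 148 and 142, lay inside that range. The high fat rats had the higher median in the listed signals and the lower median in the scaled signals.

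The mean scaled signal of rno-miR-301a was 155 ± 21.1 (SD, n = 6) in control rats and 130 ± 20.6 (SD, n = 6) in high fat rats. The log2 difference was -0.26 with a standard error of 0.14 and a 95% interval from -0.57 to 0.053, a ratio of 0.835 (0.672 to 1.04), while without scaling it was 0.049. The log2 difference was -0.40 on slide 1 and -0.12 on slide 2, and it was -0.12 without rat H3. The scanner software's error was between 7.86% and 8.78% of the signal.

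**Figure D1:**
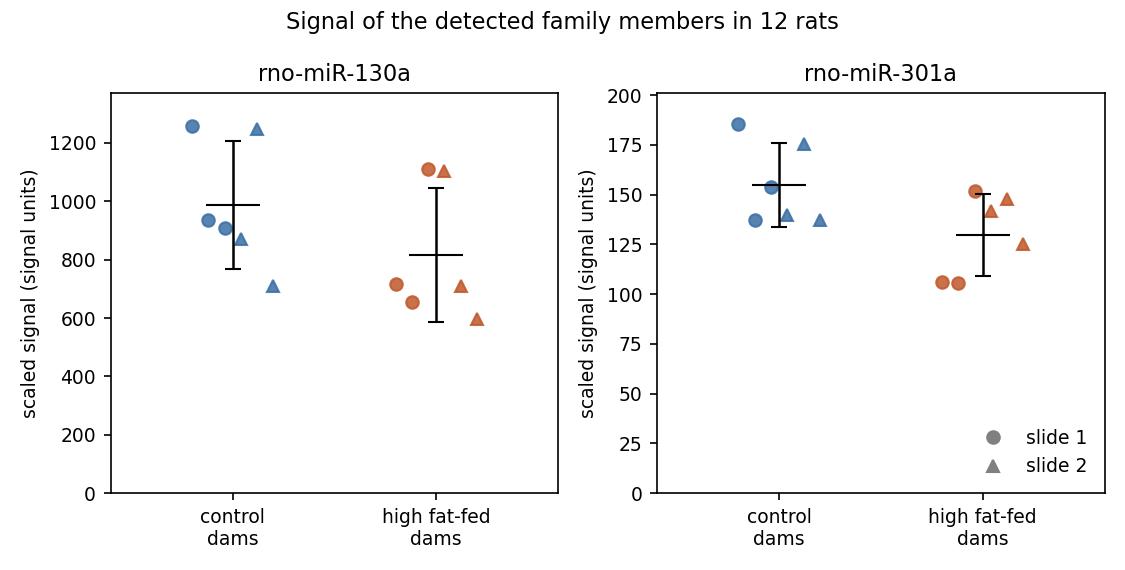
Scaled signal (signal units) of rno-miR-130a and rno-miR-301a in each rat by dam diet. Each point is 1 rat, with slide 1 as circles and slide 2 as triangles, and the black lines are the mean and 1 SD of 6 rats. The groups overlap for both miRNAs, with means of 989 and 815 for rno-miR-130a and 155 and 130 for rno-miR-301a.

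The remaining members of the family gave no signal to compare. rno-miR-130b and rno-miR-301b were listed at 0.1, the software's entry for an undetected miRNA, in all 12 rats of both diets. The lowest signal of any detected miRNA was between 3.996 and 6.72 on the 12 arrays, but it belongs to other probes and sets no limit for these members, for which no level or fold is given. rno-miR-130b went undetected on the array of control rat A89, where rno-miR-130a was listed at 1535. The 4 star strands (rno-miR-130a*, rno-miR-130b*, rno-miR-301a* and rno-miR-301b*) were listed at 0.1 in all 12 rats too, as were rno-miR-3590-5p and rno-miR-3590-3p, the arms of the miRNA on the other strand of Mir130a. Both detected members were therefore seen from 1 arm only. Other miRNAs known to carry this seed, such as miR-454 and miR-721, had no rows on the array under these names and so were not analysed.

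Over the 193 miRNAs tested, limma with Benjamini-Hochberg adjustment called 0 by diet (0%), and at an unadjusted p under 0.05 it called 2 (1.04%), both lower in high fat rats with the scaling used here. The other scalings gave calls in the opposite direction only, namely 3 by the 75th percentile of all miRNAs, 5 by quantile normalization and 3 on unscaled signals, each of them higher in high fat rats. By each of these 2 rules 0 of the 2 detected members were called. The ranges of the diets did not overlap for 0 of the 193 (0%), and they overlapped for both members. The rule that chose the family used this contrast, so nothing is read from these counts. The median log2 difference of the 193 miRNAs was -0.17, with 39 higher and 154 lower, and without scaling it was 0.14, with 153 higher and 40 lower. rno-miR-130a lay 0.13 below that median and rno-miR-301a 0.093 below it, distances that a division of each array by 1 constant leaves as they are, apart from floored values. In the order of all 193 log2 differences, rno-miR-130a stood at the percentile 23.8 and rno-miR-301a at 29.5.

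**Figure D2:**
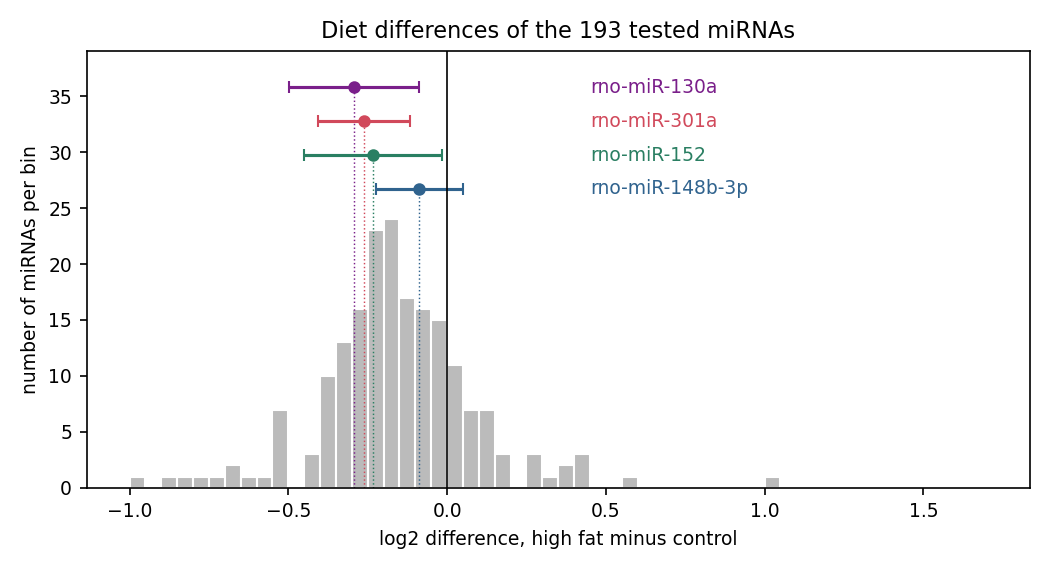
Log2 difference, high fat minus control, of the tested miRNAs as a histogram (number of miRNAs per bin). The 4 named miRNAs are points above it, bars being 1 standard error. Of the 193 tested miRNAs, rno-miR-96 at -1.55 lies left of the drawn bins and is not shown. rno-miR-130a (-0.29) and rno-miR-301a (-0.26) lie within the bulk of the histogram, and the median of the 193 was -0.17. Without scaling these 3 values were 0.016, 0.049 and 0.14.

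The size of the members' diet difference moved with the scaling and with single rats. Scaled by the 75th percentile of all miRNAs, the log2 difference was -0.12 for rno-miR-130a and -0.089 for rno-miR-301a, and after quantile normalization -0.12 and -0.093. Leaving out each rat in turn, it ran from -0.39 (without H1) to -0.16 (without H3) for rno-miR-130a and from -0.31 (without H1) to -0.12 (without H3) for rno-miR-301a. The values without A37, -0.17, and without H10, -0.20, came next for rno-miR-130a. Blocking on the first letter of the rats' labels gave -0.34 for rno-miR-130a and -0.28 for rno-miR-301a. The difference of both members was below 0 in each of these alternatives except the one without scaling.

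**Figure D3:**
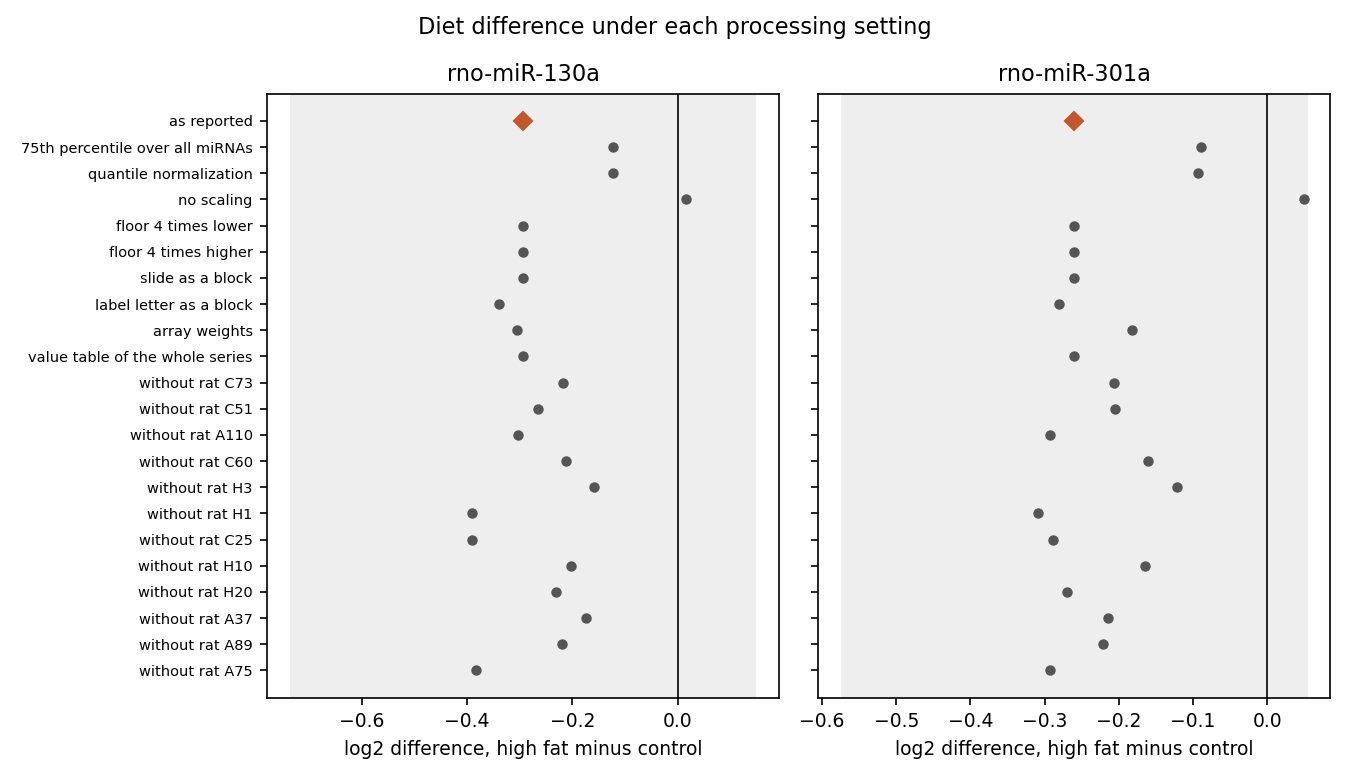
Log2 difference, high fat minus control, of rno-miR-130a and rno-miR-301a under each processing setting. The diamond is the value given in the text, grey points are the alternatives and the shaded band is the 95% interval. All points lie inside the band, and only those without scaling, 0.016 and 0.049, lie above 0.

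Slide was not used to choose the family, so it could be tested. rno-miR-130a had a mean scaled signal of 930 ± 229 (SD, n = 6) on slide 1, where it ran from 655 to 1258, and 873 ± 255 (SD, n = 6) on slide 2, where it ran from 596 to 1249. The log2 difference, slide 2 minus slide 1, was -0.10 with a standard error of 0.22 (limma adjusted p = 0.803, and p = 0.639 in the exact two-sided permutation test over 924 assignments), and it was 0.11 with the 75th percentile of all miRNAs and 0.29 without scaling. With a rat left out it ran from -0.22 (without A89) to -0.0099 (without C73). rno-miR-301a ran from 106 to 186 on slide 1 and from 125 to 176 on slide 2. Its log2 difference was 0.068 with a standard error of 0.16 (limma adjusted p = 0.814, exact two-sided permutation p = 0.639), and it was -0.0060 without rat C51 and 0.28 with the 75th percentile of all miRNAs (exact two-sided permutation p = 0.156). On the scaled values neither member passed the test between slides, against 14 of 193 miRNAs (7.25%) that limma called after adjustment. In the listed signals rno-miR-301a was higher on slide 2 (125 to 216) than on slide 1 (98.3 to 142), with a log2 difference of 0.47 (exact two-sided permutation p = 0.0216, limma adjusted p = 0.079), on the slide whose arrays all had the larger summed signal.

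A pair of miRNAs with the shifted hexamer and another pair known to share the target Pparg were tested by diet, since the rule did not use them. These lists were, however, chosen with earlier results of these data known. The list of miRNAs with the shifted hexamer had 2 measured members and the list of other miRNAs known to target Pparg had 2, and limma called 0 of these 4, against 0% of all 193. rno-miR-148b-3p ran from 85.2 to 103 in control rats (median 93.8) and from 68.7 to 110 in high fat rats (median 91.9). Its log2 difference was -0.087 with a standard error of 0.14 (limma adjusted p = 0.819), and 0.22 without scaling. rno-miR-152 ran from 139 to 265 in control rats (median 177) and from 109 to 225 in high fat rats (median 141). Its log2 difference was -0.23 with a standard error of 0.22 (limma adjusted p = 0.700), -0.053 without rat H3 and 0.076 without scaling.

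rno-miR-27a and rno-miR-27b, which share a seed of their own and are also known to repress Pparg, overlapped between diets as well. rno-miR-27a ran from 10555 to 19162 in control rats (median 11823) and from 4429 to 13547 in high fat rats (median 12084). Its log2 difference was -0.34 with a standard error of 0.27 (limma adjusted p = 0.685), but -0.011 without rat H3, which held the value 4429, and -0.030 without scaling. It was -0.83 on slide 1, which held rat H3, and 0.15 on slide 2. rno-miR-27b ran from 5589 to 6910 in control rats and from 2944, again in H3, to 6603 in high fat rats. Its log2 difference was -0.28 with a standard error of 0.18 (limma adjusted p = 0.685), -0.039 without H3 and 0.029 without scaling. None of the 4 showed a diet difference beyond the spread between rats.

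rno-miR-130a varied more between rats than rno-miR-301a. The SD of log2 scaled signal over the 12 rats was 0.37 for rno-miR-130a, above the median of 0.34 over the 162 miRNAs detected on all arrays (percentile 60.5). For rno-miR-301a it was 0.25 (percentile 17.9). This order of the members' spreads was not tested.

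The detected members went up and down together over the rats. Pearson's r of their log2 scaled signals was 0.79 over the 12 rats and Spearman's rho was 0.78. Within slide 1 it was 0.95 and within slide 2 it was 0.78, and within control rats it was 0.90 and within high fat rats 0.63. Without the rats farthest from the median of rno-miR-130a, A37 and C73, it was 0.74, and without H3 it was 0.63. It fell to 0.31 after quantile normalization. These points share the array and its scaling, and over the 161 other miRNAs the median r with rno-miR-130a was 0.38 and with rno-miR-301a 0.43. By this r, rno-miR-301a ranked 22 among the 161 for rno-miR-130a, and rno-miR-130a ranked 8 among the 161 for rno-miR-301a. These ranks were 32 and 51 after quantile normalization, 27 and 23 on the listed signals and 36 and 14 without rat H3.

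The log2 difference between the members within an array, which no division of an array by a constant can change, was -2.66 ± 0.17 (SD, n = 6) in control rats and -2.62 ± 0.30 (SD, n = 6) in high fat rats. The diets differed in it by 0.034, less than either SD. It was highest in A37 at -2.25 and H20 at -2.27 and lowest in C25 at -2.96, all 3 of them high fat rats of slide 2.

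The 3 miRNAs with the pattern over the 12 rats most like rno-miR-130a were rno-miR-199a-3p (r = 0.961), rno-miR-125b-5p (r = 0.958) and rno-miR-214 (r = 0.954). Within the slides these r were between 0.922 and 0.989. They stayed the first 3 after quantile normalization, and without rat H3 they took ranks 2, 4 and 1, with r of 0.943, 0.936 and 0.943. In the listed signals rno-miR-214 dropped to rank 21 with r = 0.871. rno-miR-152, with the shifted hexamer, ranked 7 with r = 0.919, while rno-miR-148b-3p ranked 33 with r = 0.698. The 4 vessel miRNAs gave r between 0.18 and 0.39 with rno-miR-130a, around or below the median of 0.38, and rno-miR-27a gave 0.37. Without rat H3 the r of the vessel miRNAs were between -0.34 and -0.17 and that of rno-miR-27a was 0.095. The vessel miRNAs gave r between 0.58 and 0.77 within slide 1, which held H3, and between -0.14 and 0.26 within slide 2. On the listed signals their r were between 0.54 and 0.61, at ranks from 77 to 97 among the 161. For rno-miR-27a the r was 0.74 within slide 1 and -0.84 within slide 2, so these values rested on single rats or slides.

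The values of rno-miR-199a-3p, which was picked for its likeness to rno-miR-130a over these rats, are given to show what that r looks like. It was 5116 in C25 and 3910 in H1, the high fat rats highest in rno-miR-130a, and between 1676 and 2198 in the other 4 high fat rats. In control rats it ran from 2000 in A75, the lowest control rat for rno-miR-130a, to 5035 in A89. C73, the highest control rat for rno-miR-130a, came next at 4455.

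**Figure D4:**
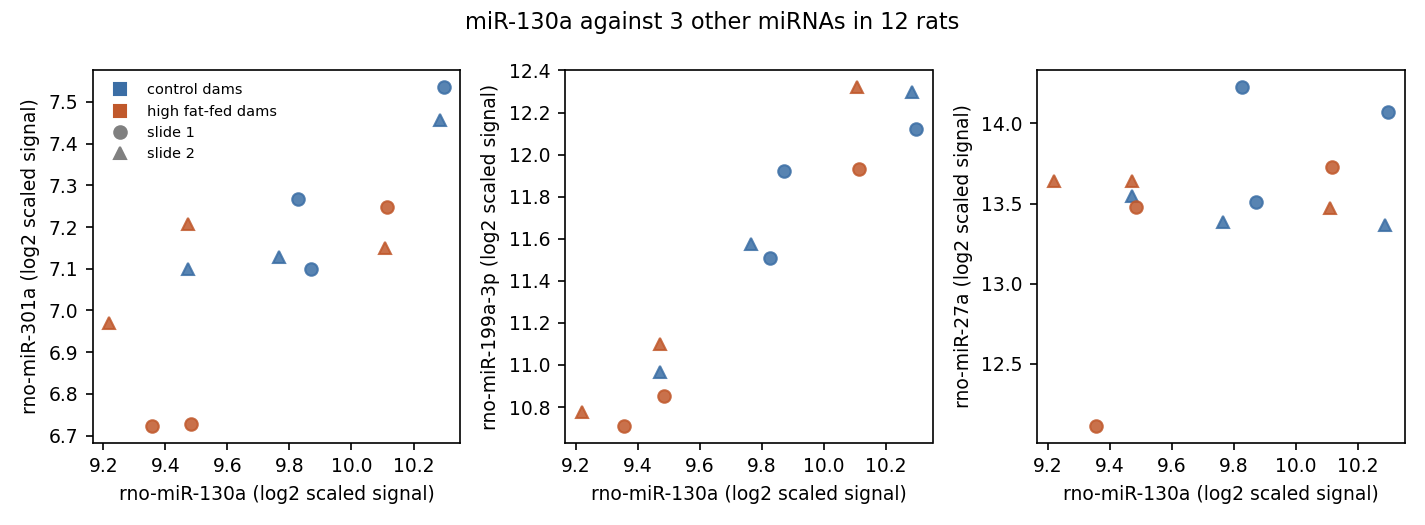
Log2 scaled signal of rno-miR-301a, rno-miR-199a-3p and rno-miR-27a (vertical) against that of rno-miR-130a (horizontal). Each point is 1 of 12 rats, blue for control and orange for high fat, circles for slide 1 and triangles for slide 2. r was 0.79, 0.961 and 0.37, and the lowest point of rno-miR-27a is high fat rat H3.

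For rno-miR-301a the most similar were rno-miR-146a (r = 0.868), rno-miR-542-3p (r = 0.813) and rno-miR-674-3p (r = 0.810), with rno-miR-152 at rank 5 (r = 0.805) and rno-miR-130a at rank 8. rno-miR-542-3p and rno-miR-674-3p lay near the floor of 5.17, with listed signals from 8.52 to 25.2 and from 4.40 to 11.5, and scanner errors up to 30.4% and 32.4%. The first 3 took ranks 12, 46 and 63 after quantile normalization, 1, 3 and 9 on the listed signals and 4, 17 and 6 without rat H3. rno-miR-152 and rno-miR-130a took ranks 31 and 51 after quantile normalization and 9 and 14 without rat H3. No miRNA was among the first 3 of both members, but this rests on the cut at 3. rno-miR-674-3p came next after the first 3 of rno-miR-130a (r = 0.947), and rno-miR-152 ranked 7 for rno-miR-130a and 5 for rno-miR-301a.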

How the data were processed

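For every array the authors deposited total signal intensity values and detection flags of all miRNAs, extracted by the scanner software after Cy3 labelling, with background subtracted and spots combined, and unnormalized between arrays. The deposited value table held the same intensity values, with 0 cells that differed. The software version and a genome build are not given in the sources used here. Groups came from the labels, and slides from the barcode in the name of each array's deposited data, since the labels name no slide. The 22 control rows were left out. Each array was divided by its 75th percentile over the 162 miRNAs detected on all arrays, multiplied by 1354, the geometric mean of those percentiles, and log2 was taken with values under 5.17 set to 5.17. Diets and slides were compared in limma 3.58.1 (R 4.3.3), adjusted over 193 miRNAs with detected signal on 6 or more arrays, and checked on simulated data. The slide difference of each detected member was also tested by the exact permutation test. The number of arrays limits the precision. Named miRNAs were the members, their star strands and overlapping miRNA, listed relatives and Pparg miRNAs, and the 3 most correlated with each detected member. The members and lists were chosen with earlier results of these data known. Alternatives covered scaling, floor, filter, blocks, tests and each rat left out. Quantile normalization of the correlations, and their ranks unscaled and without H3, were chosen after seeing the data.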

Additional observations from a re-analysis of the deposited data

Results flagged for a closer look

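Of 12 groups of 6 rats examined (6 miRNAs in 2 diets), 1 held a rat set apart by Dixon's criterion, which chance meets in about 1 in 20 groups. In the high fat rats, rno-miR-27a had a scaled signal of 4429 in H3 and between 11344 and 13547 in the other 5. The same rat had the lowest rno-miR-27b, 2944 with a gap to the next rat of 0.614 of the group's range, which stayed below the criterion. No rat was set apart by it for rno-miR-130a or rno-miR-301a.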

How the results depend on the processing

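The count of members called by diet after adjustment was 0 in all 13 alternatives and in the 12 that left out a rat. Nothing is read from it, since the family was chosen on this contrast. The count over all tested miRNAs was 0 in the same settings. At an unadjusted p under 0.05 the count was 2, but 8 with slide as a block, 5 after quantile normalization, 12 with array weights, 1 with miRNAs detected on all arrays only and 1 with trend and robust fitting, and 1 to 15 with a rat left out (1 without H3 or A37, 15 without H1). Without scaling the diet difference (log2) turned to 0.016 for rno-miR-130a, 0.049 for rno-miR-301a, 0.22 for rno-miR-148b-3p, 0.076 for rno-miR-152 and 0.029 for rno-miR-27b. rno-miR-148b-3p also turned to 0.084 with the 75th percentile of all miRNAs and 0.038 after quantile normalization, and with a rat left out ran from -0.15 to 0.024. The slide difference of rno-miR-130a turned to 0.11 with the 75th percentile of all miRNAs and 0.29 without scaling, and ran from -0.22 to -0.0099 with a rat left out. That of rno-miR-301a was 0.28 and 0.47 in these 2 settings and ran from -0.0060 to 0.16 with a rat left out. The correlation of the members was 0.31 after quantile normalization. Leaving out the scaling, or another percentile, shifts all miRNAs of an array alike by construction. For the other alternatives, quantile normalization included, the cause was not tested. No paired analysis was possible because the rats of the diets share no numbers. With 6 rats a diet, differences inside the printed intervals could not be resolved, and undetected members have no measured level.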
